A study of Mus musculus with 8 samples.

Results

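Acta1, Actc1, Actb and Actg1, the skeletal, cardiac and the 2 cytoplasmic actins, were followed in tongue of mice that model oculopharyngeal muscular dystrophy, which weakens eyelid, throat and tongue muscle late in life. These are 4 of the 19857 genes in the deposited count table. They were picked with results of these data known, because Acta1 had the smallest p of all genes in an earlier comparison of the genotypes. Every difference between the genotypes in these 4 genes is therefore a description without a test. Female mice aged 12 months were either wild type (WT) or carried the PABPN1A17 allele on 1 chromosome (A17/+). There were 4 mice per genotype, and no treatment is given. PABPN1 is a nuclear protein that binds poly(A) tails, and oculopharyngeal muscular dystrophy is caused by a short lengthening of its alanine tract. RNA was taken from frozen sections of the median tongue and counted as unique molecular identifiers (UMIs) by mcSCRB-seq. That method primes on the poly(A) tail and counts each tagged molecule once. Counts per gene do not read the alanine tract, so they do not check the genotype labels.

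Actins are small proteins that polymerise into filaments. In striated muscle the filaments of alpha-actin form the thin filaments that myosin pulls on. Acta1 is the alpha-actin of adult skeletal muscle, while Actc1 is the alpha-actin of the heart and of embryonic skeletal muscle. Actb and Actg1 encode the beta and gamma actins of the cytoskeleton, which nearly all cells make and which carry cell shape, migration and junctions. Tongue holds both kinds of source, skeletal muscle in the core and epithelium, connective tissue and vessels around it. In such bulk samples fewer cells of a type and less RNA per cell cannot be told apart.

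Library totals ran from 205696 to 485326 UMIs, with 4 WT libraries between 205696 and 465014 and 4 A17/+ libraries between 395061 and 485326. Levels are TMM-scaled CPM. The tissue label was met by its markers: the 12 striated muscle markers in the table summed to 79323 to 107505 CPM in WT and to 101040 to 120196 CPM in A17/+. The 17 markers of tongue epithelium summed to 16329 to 19042 CPM in WT and to 11674 to 21893 CPM in A17/+. No marker on these lists was at 0 over all libraries. A pair of libraries resembled each other more than the other libraries of their own groups. WT 1 resembled A17/+ 1 most (Pearson r of 0.915 over 5066 genes, against at most 0.889 with another WT library). A17/+ 1 in turn resembled WT 1 most (at most 0.886 with another A17/+ library). WT 1 and A17/+ 1 were also the libraries with the most UMIs of their genotypes, 465014 and 485326. The part of depth in this resemblance was not tested. With each library centred on the mean of its own genotype, WT 1 and A17/+ 1 had a Pearson r of −0.015 over genes, so they did not deviate together. WT 1 also held 923 UMIs of salivary gland genes, where the other 7 libraries held 0 to 20. Results that rest on these libraries are given with and without them.

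RefSeq promoter windows on GRCm38.p6, which run from 250 bases before to 50 bases after the annotated start, were at hand for 3 of the 4 genes, and are shown because the CArG box is the textbook binding site of serum response factor in actin genes. They lie at chr8:123894726-123895025 for Acta1, chr2:114052826-114053125 for Actc1 and chr11:120348446-120348745 for Actg1, all on the minus strand, and the Actc1 window lies within its gene model, from a start of RefSeq downstream of that of GENCODE. They are written 5′ to 3′ in the direction of the gene. Capitals mark a CArG box and, where present, the letters TATAAA in the window.
Acta1 promoter: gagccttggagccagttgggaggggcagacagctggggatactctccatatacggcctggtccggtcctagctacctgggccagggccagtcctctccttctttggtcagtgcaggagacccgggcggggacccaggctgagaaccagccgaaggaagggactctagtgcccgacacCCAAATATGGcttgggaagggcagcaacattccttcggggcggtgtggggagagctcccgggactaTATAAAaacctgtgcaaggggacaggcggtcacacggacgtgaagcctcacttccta
Actc1 promoter: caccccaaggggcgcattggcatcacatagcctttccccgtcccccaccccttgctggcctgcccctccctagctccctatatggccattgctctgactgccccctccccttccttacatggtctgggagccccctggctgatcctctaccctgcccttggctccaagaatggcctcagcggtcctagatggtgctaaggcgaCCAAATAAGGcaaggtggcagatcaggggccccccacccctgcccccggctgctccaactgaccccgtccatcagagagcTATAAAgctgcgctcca
Actg1 promoter: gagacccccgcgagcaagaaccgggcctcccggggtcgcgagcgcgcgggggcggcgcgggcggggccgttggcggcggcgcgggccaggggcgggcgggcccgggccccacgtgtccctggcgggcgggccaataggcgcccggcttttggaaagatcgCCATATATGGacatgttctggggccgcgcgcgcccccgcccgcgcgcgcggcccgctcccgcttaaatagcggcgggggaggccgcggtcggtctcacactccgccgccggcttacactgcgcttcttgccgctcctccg
Each of the 3 windows held 1 CArG box. It lay at bases 178 to 187 of the window in Acta1, 204 to 213 in Actc1 and 161 to 170 in Actg1. Over all genes with such a window, 1.81% of 27025 held a CArG box on either strand. The letters TATAAA stood in the striated pair but not in the Actg1 window, at bases 244 to 249 in Acta1 and 284 to 289 in Actc1, and in 15.7% of all genes on either strand. Against the start that defines the window, those of Acta1 lie 7 to 2 bases before it and those of Actc1 after it. The GENCODE model of Acta1 starts at base 123894751 of chromosome 8, downstream of the start that defines its window. Against the GENCODE start its letters therefore lie further upstream. The letters CATTCC, the core of the site read by TEAD factors, was found in Acta1 alone of the 3, and in 16.6% of all genes on either strand. CANNTG, the general E-box pattern, was found in all 3 and in 75.0% of all genes. Its letters were CAGTTG and CAGCTG in Acta1, CAACTG in Actc1 and CACGTG in Actg1. GC content was 61.0% in the Acta1 window, 62.7% in Actc1 and 77.3% in Actg1. The match of a motif is a description of these letters.

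Acta1 (ENSMUSG00000031972, mm10 chromosome 8, 123891769 to 123894751, minus strand) was the actin with the most UMIs in every library. WT 1 to 4 held 586, 357, 324 and 197 of its UMIs, and A17/+ 1 to 4 held 957, 1469, 1228 and 1798. In CPM this was 1195, 1056, 1004 and 977 in WT, and 1953, 3797, 3175 and 4691 in A17/+. All 4 A17/+ libraries lay above all 4 WT libraries, the WT libraries lay close together, and A17/+ 1 was the lowest of its genotype. The means were 1058 ± 97.3 CPM in WT against 3404 ± 1150 CPM in A17/+ (SD, n = 4). The coefficient of variation was 9.20% in WT and 33.8% in A17/+.

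The log2 fold change of Acta1 was 1.68 (SE 0.22), which is 3.21-fold with a 95% interval of 2.33 to 4.42. The choice of these genes rested on its p of 7.16e-07 in the edgeR fit, adjusted 0.00187. Fabp4, a fatty acid carrier of adipocytes and endothelium, came next at 7.42e-07. As a share of the library, Acta1 took 0.0958% of the UMIs of WT 4 (95% Wilson interval 0.0833 to 0.110) and 0.427% of those of A17/+ 4 (0.407 to 0.447), the lowest and the highest library. Such intervals cover counting error only.

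Actc1 (ENSMUSG00000068614, mm10 chromosome 2, 114047282 to 114053548, minus strand), the actin of heart and embryonic muscle, was the minor striated actin. WT 1 to 4 held 36, 16, 12 and 7 of its UMIs, and A17/+ 1 to 4 held 17, 71, 65 and 55. The levels were 73.4, 47.3, 37.2 and 34.7 CPM in WT and 34.7, 184, 168 and 143 CPM in A17/+. A17/+ 2, 3 and 4 lay above every WT library, whereas A17/+ 1 lay at the level of the lowest WT library, so the groups overlapped. The means were 48.2 ± 17.7 CPM in WT against 132 ± 67.2 CPM in A17/+ (SD, n = 4). The log2 fold change was 1.37 (SE 0.45), a fold of 2.59 with a 95% interval of 1.31 to 5.12, and 2.02 on the log2 scale without both libraries numbered 1.

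Within the striated pair Actc1 took 4.27% ± 1.08 of the UMIs in WT against 3.59% ± 1.52 in A17/+ (SD, n = 4). The lowest share was 1.75% in A17/+ 1 (95% Wilson interval 1.09 to 2.78) and the highest 5.79% in WT 1 (4.21 to 7.91). Acta1 had 16.3, 22.3, 27.0 and 28.1 times the UMIs of Actc1 in WT 1 to 4, and 56.3, 20.7, 18.9 and 32.7 times in A17/+ 1 to 4. The A17/+ values lay both below and above the WT range, and A17/+ 1 was the highest of all 8.

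Actb (ENSMUSG00000029580, mm10 chromosome 5, 142903115 to 142906754, minus strand), beta-actin of the cytoskeleton, was the most abundant cytoplasmic actin. WT 1 to 4 held 92, 43, 58 and 30 of its UMIs, and A17/+ 1 to 4 held 111, 303, 194 and 198. The levels were 188, 127, 180 and 149 CPM in WT and 226, 783, 502 and 517 CPM in A17/+. The groups did not overlap. A17/+ 1 lay just above the highest WT library and A17/+ 2 was the highest of all. The means were 161 ± 28.0 CPM in WT against 507 ± 227 CPM in A17/+ (SD, n = 4). The log2 fold change was 1.64 (SE 0.31), a fold of 3.12 with a 95% interval of 1.96 to 4.95.

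Actg1 (ENSMUSG00000062825, mm10 chromosome 11, 120345690 to 120348542, minus strand), gamma-actin of the cytoskeleton, was low in both genotypes. WT 1 to 4 held 24, 14, 10 and 8 of its UMIs, and A17/+ 1 to 4 held 27, 15, 16 and 22. The levels were 49.0, 41.4, 31.0 and 39.7 CPM in WT and 55.1, 38.8, 41.4 and 57.4 CPM in A17/+. The ranges overlapped, and A17/+ 1, low for the other 3 actins within its genotype, was here the second highest. The means were 40.3 ± 7.38 CPM in WT against 48.2 ± 9.44 CPM in A17/+ (SD, n = 4). The log2 fold change of 0.24 (SE 0.28) had a 95% interval of −0.34 to 0.82, a fold between 0.788 and 1.77.

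**Figure D1:**
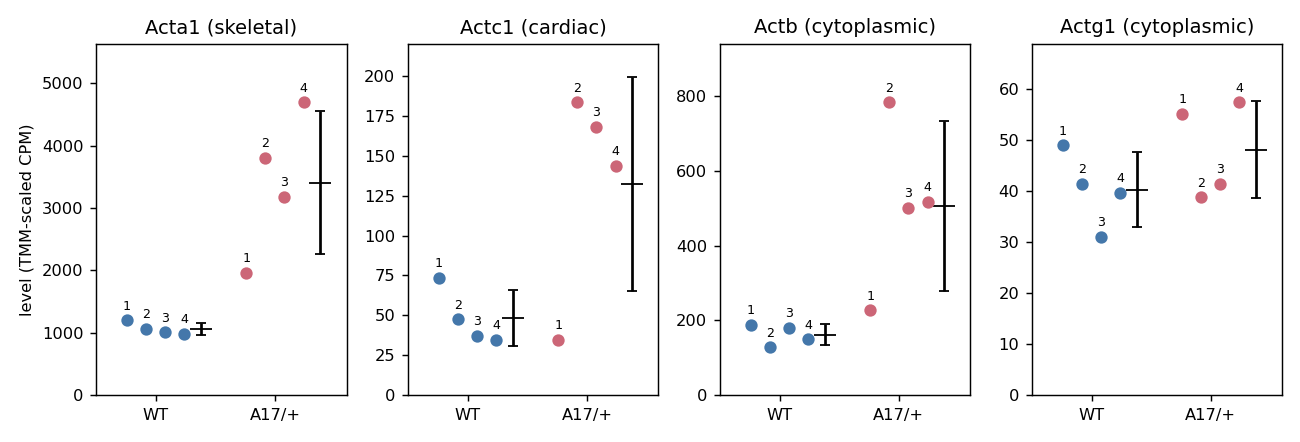
Level of each actin in TMM-scaled CPM on a linear axis from 0 with its own scale per panel. Each point is a library with its number, blue for WT and red for A17/+, and the black bar with whiskers is the mean ± SD of 4 libraries. Acta1 lies between 977 and 1195 CPM in WT and between 1953 and 4691 CPM in A17/+, and Actg1 overlaps between the genotypes.

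Of the 4 actins, 2 (Acta1 and Actb) were past an edgeR adjusted p of 0.05, both higher in A17/+, where 8.94% of the 5066 genes tested were past it and 6.34% were past it and higher. The same pair had all 4 A17/+ levels above all 4 WT levels, as did 8.57% of the genes tested. Actc1 was past that threshold too with DESeq2, with no filter, in thinned counts, without A17/+ 1 and without both libraries numbered 1, so the count was then 3. Since the genes were chosen on this comparison, nothing is read from these counts. All 4 genes passed the filter on low counts. Over all 5066 genes the median log2 fold change was 0.01.

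The order of the mean levels was Acta1, Actb, Actc1 and Actg1, both in CPM and in CPM per kilobase of transcript. Per kilobase Acta1 had 732 ± 67.3 in WT and 2354 ± 795 in A17/+, Actb 83.8 ± 14.6 and 264 ± 118, Actc1 32.7 ± 12.0 and 89.9 ± 45.6, and Actg1 20.6 ± 3.78 and 24.7 ± 4.84 (SD, n = 4). The method is meant to count each tagged molecule once, so the values per kilobase are given as an alternative. Ttn, which encodes the giant protein titin, had a mean of 57862 CPM in WT, against 1058 CPM for Acta1. Whether counts within a library grow with transcript length was not tested, so neither unit is called the better measure of abundance. Acta1 lay above Actb in 8 of 8 libraries, 4.85 to 9.08 times in CPM and 6.44 to 12.1 times per kilobase. Actb lay above Actc1 in 8 of 8 libraries, 2.56 to 6.53 times in CPM and 1.96 to 5.01 times per kilobase. Actc1 and Actg1 did not keep their order: Actc1 was higher per kilobase in 7 of 8 libraries and higher in CPM in 6 of 8, and their ratio per kilobase ran from 0.834 to 6.27.

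Striated and cytoplasmic actins were then compared within each library, where no scaling between libraries enters. The summed UMIs of Acta1 and Actc1 were 5.36, 6.54, 4.94 and 5.37 times those of Actb and Actg1 in WT 1 to 4, and 7.06, 4.84, 6.16 and 8.42 times in A17/+ 1 to 4. A17/+ 1 and 4 lay above the WT range, A17/+ 3 inside it and A17/+ 2 just below it, so the groups overlapped. The mean ratio was 5.55 ± 0.690 in WT against 6.62 ± 1.51 in A17/+ (SD, n = 4), and on the log2 scale A17/+ differed from WT by 0.23, against SDs of 0.17 in WT and 0.34 in A17/+. With counts per kilobase the ratios were 7.39 ± 0.922 and 8.80 ± 2.01. Acta1 and Actb alone gave 6.71 ± 1.15 in WT and 7.22 ± 1.99 in A17/+. The striated share of the 4 actins was 84.6% ± 1.51 in WT and 86.5% ± 2.76 in A17/+, while the 4 actins together took 0.137% ± 0.0180 of the library in WT against 0.386% ± 0.114 in A17/+ (SD, n = 4).

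The cytoplasmic pair differed more within itself. Actb had 3.83, 3.07, 5.80 and 3.75 times the UMIs of Actg1 in WT 1 to 4, and 4.11, 20.2, 12.1 and 9.0 times in A17/+ 1 to 4. A17/+ 1 lay inside the WT range and A17/+ 2, 3 and 4 lay above it. Actg1 took 20.3% ± 4.09 of the cytoplasmic pair in WT against 10.5% ± 6.43 in A17/+ (SD, n = 4). The share was lowest in A17/+ 2, at 4.72% (95% Wilson interval 2.88 to 7.64), and highest in WT 2, at 24.6% (15.2 to 37.1), where the pair had only 57 UMIs.

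**Figure D2:**
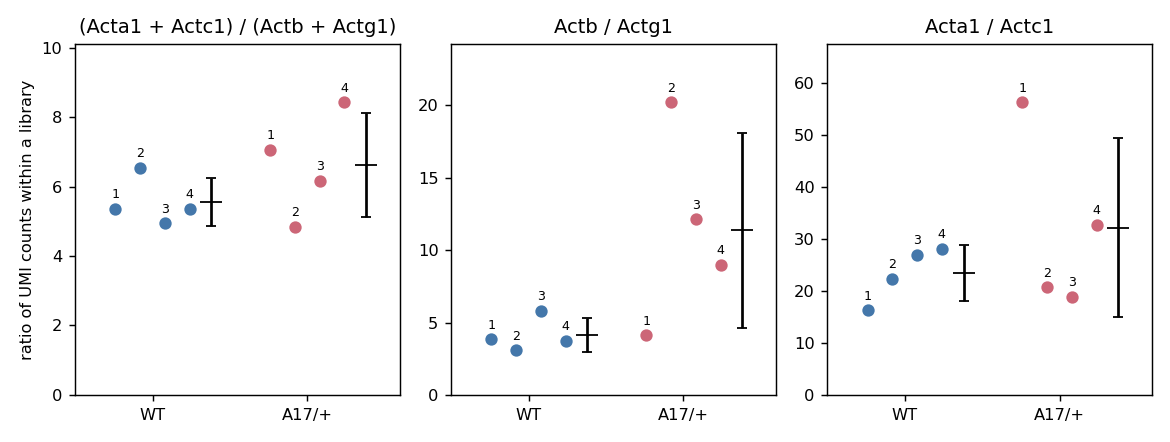
Ratios of UMI counts within a library on linear axes from 0, one panel per ratio, with numbered points for libraries (blue WT, red A17/+) and the mean ± SD of 4 libraries in black. The ratio of striated to cytoplasmic actin overlaps between genotypes (4.94 to 6.54 in WT, 4.84 to 8.42 in A17/+), and that of Actb to Actg1 lies at 9.0 or more in A17/+ 2, 3 and 4 and at 5.80 or less in the other 5 libraries.

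Leaving out both libraries numbered 1, a choice made after the data were seen, gave log2 fold changes of 1.94 for Acta1, 2.02 for Actc1, 1.98 for Actb and 0.30 for Actg1. When each library's dependence on transcript length was taken out instead, the values were 1.30, 1.00, 1.43 and 0.08. The representative transcripts measure 1446 nt for Acta1, 1473 nt for Actc1, 1920 nt for Actb and 1952 nt for Actg1.

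Because actins are alike in sequence, the transcripts were compared for stretches that a read could share. Coding sequences shared 86.2% of bases between Acta1 and Actc1 and 88.7% between Actb and Actg1, and 81.5% to 84.8% between a striated and a cytoplasmic actin. The stretches after the coding sequence shared 45.0% within the striated pair and 50.1% within the cytoplasmic pair. No 100-nt window of Acta1 or Actc1 recurred in a transcript of another gene of GENCODE M21. For Actg1, 946 of 1853 windows recurred in 1 or more of 6 processed pseudogenes, and for Actb 20 of 1821 recurred in 2 other genes. After the coding sequence, where reads primed on the poly(A) tail should start, 0 of 601 windows of Actg1 and 0 of 584 of Actb recurred. The 6 pseudogenes are not in the table used here, and how reads with several matches were treated is not given in the sources used here, so the low level of Actg1 is uncertain. Gm20388, a gene model on the opposite strand that spans Acta1, is not in the table used here, and use of strand in counting is not given in the sources used here.

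Acta1 was next set against sums of other muscle transcripts in the same library, which a few long genes carry. Of a mean of 97463 CPM for the striated muscle markers in WT, Ttn, the giant spring protein titin, made up 57862 CPM, and its log2 fold change was 0.13. Of a mean of 21294 CPM for the thin filament list in WT, Neb, nebulin, made up 8724 CPM, with a log2 fold change of 0.23. The ratios therefore follow those genes more than the members that rose. Acta1 had 1.15, 1.33, 1.01 and 0.909 UMIs per 100 UMIs of the striated muscle markers in WT 1 to 4, against 1.65, 3.76, 2.79 and 3.90 in A17/+ 1 to 4. All A17/+ libraries lay above all WT libraries, with A17/+ 1 nearest. Per 100 UMIs of the thin filament list Acta1 had 5.03 ± 0.787 in WT against 11.6 ± 3.69 in A17/+ (SD, n = 4). Actb had 0.165 ± 0.0203 UMIs per 100 UMIs of the striated muscle markers in WT and 0.459 ± 0.240 in A17/+. Against the markers of tongue epithelium Actb had 0.900 ± 0.205 per 100 UMIs in WT and 2.94 ± 0.699 in A17/+, again without overlap.

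**Figure D3:**
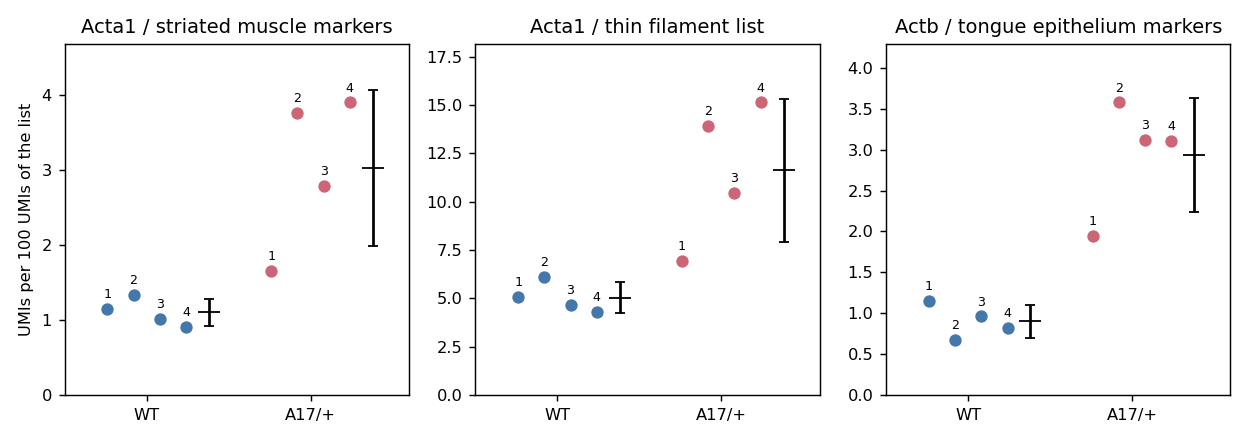
UMIs of Acta1 per 100 UMIs of the striated muscle markers (left) and of the thin filament list (middle), and of Actb per 100 UMIs of the tongue epithelium markers (right), on linear axes from 0. Points are numbered libraries (blue WT, red A17/+) and black bars the mean ± SD of 4 libraries. In each panel the A17/+ libraries lie above the WT libraries, with A17/+ 1 the lowest of its genotype.

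Several marker lists moved with the actins, and their part in the actin levels was not tested. For the list counts, the background is that 6.34% of all genes tested were past the threshold and higher in A17/+, and 2.61% past it and lower. Of 12 striated muscle markers 6 were higher in A17/+ and 0 lower by edgeR (0 lower also by DESeq2, by limma-voom and at an unadjusted p under 0.05), with a median log2 fold change of 0.58. Ckm, muscle creatine kinase, rose by 1.09 on the log2 scale (SE 0.21), Des, the muscle intermediate filament desmin, by 1.31 (SE 0.26), and Mb, the oxygen store myoglobin, by 2.46 (SE 0.40). Of the 12 markers 10 had a positive log2 fold change. The myosin heavy chain gene Myh4, at 16720 CPM in WT and 16615 CPM in A17/+, had −0.009 and Ryr1 had −0.022. Both are named after their values were seen. Of 17 epithelial markers 5 were lower and 0 higher by edgeR, DESeq2 gave 4 lower and 0 higher and limma-voom 5 and 0, and 2 were higher at an unadjusted edgeR p under 0.05, with a median of −0.33. The count higher was 1 without WT 1, 4 without A17/+ 1 and 5 without both. Among them Dsp, the desmosome protein desmoplakin, fell by 0.85, and Krt76, a keratin of the oral mucosa, fell by 0.72. Other members of the list leaned the other way without passing the threshold and are named after their values were seen: Krt13, a keratin of the upper mucosal layers, had 0.68 (SE 0.21; edgeR adjusted p = 0.0501), and Krt5, a keratin of basal cells, 0.81 (SE 0.29; adjusted p = 0.0942).

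Fibroblast markers summed to 621 to 828 CPM in WT and to 912 to 1598 CPM in A17/+, and 3 of 7 tested members were higher, a count that was 1 without WT 3, 1 with limma-voom and 5 without both libraries numbered 1. Dcn, the matrix proteoglycan decorin, rose by 2.24 (SE 0.44), Col3a1, a fibrillar collagen, by 1.31 and Fbn1, fibrillin, by 0.82. Leukocyte markers, of which 2 of 10 could be tested, summed to 152 to 386 CPM in WT and 347 to 507 CPM in A17/+. The 386 CPM was that of WT 1, and the other WT libraries had 152 to 208 CPM. This list had 0 members higher in the main fit and 1 without WT 1. Endothelial markers summed to 500.0 to 546 CPM in WT and 545 to 574 CPM in A17/+. Smooth muscle and pericyte markers summed to 846 to 1038 CPM in WT and 959 to 1294 CPM in A17/+, with 1 of 6 tested members higher, Acta2, and 2 without WT 1 or A17/+ 2. The 1038 CPM was again that of WT 1, and the other WT libraries had 846 to 908 CPM. Red blood cell markers summed to 18.4 to 29.6 CPM in WT and 91.8 to 1220 CPM in A17/+, and Schwann cell markers to 27.9 to 42.8 CPM and 89.8 to 147 CPM.

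The smooth muscle actins, the remaining actins of the family that mark vessel and gut muscle, were measured for comparison. Acta2 rose from 59.7 ± 14.7 to 132 ± 41.0 CPM (SD, n = 4), a log2 fold change of 1.13 (SE 0.28; edgeR adjusted p = 0.0169). The call was lost without WT 2, WT 3, A17/+ 3 or A17/+ 4. Actg2 had 1 to 5 UMIs in each library and was not tested.

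Genes of the striated thin filament and its anchors, which build on the alpha-actins, were the actin-related list with the most changes. Of 26 listed genes 24 were in the table and 21 were tested, and of these 10 rose, 1 fell and 10 were not past the threshold, with a median log2 fold change of 0.89 against 0.01 over all genes, of which 6.34% were past the threshold and higher and 2.61% past it and lower. The largest of the 5 with the smallest p was Tnnt3, fast troponin T, which rose from 1013 ± 321 to 2298 ± 474 CPM, a log2 fold change of 1.18 (SE 0.23; edgeR adjusted p = 0.00686). Its log2 fold change was 0.55 and its adjusted p 0.104 with the length trend removed. The tropomyosins Tpm2 and Tpm1, which lie along the actin filament, rose by 0.89 (SE 0.16) and 0.95 (SE 0.20) on the log2 scale. Nrap, a scaffold of growing myofibrils, rose by 0.96 (SE 0.18), and Klhl41, a kelch protein that is mutated in nemaline myopathy, by 1.05 (SE 0.22). The member that fell was Tpm3, another tropomyosin gene (−0.92, SE 0.26; edgeR adjusted p = 0.0359), named after its value was seen. Counts per gene do not tell which cells its transcripts came from. The thin filament list shares Actn2, Neb and Tnnt3 with the striated muscle markers. Neb, the nebulin ruler of the thin filament, had 0.23 (SE 0.17) and was likewise chosen after its value was seen.

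The count of 10 members that rose was 5 when WT 2, WT 3 or A17/+ 4 was left out, and 6 when WT 4 or A17/+ 3 was left out. It was 10 with DESeq2, 6 with limma-voom and 13 without both libraries numbered 1. Over all genes 321 were higher in the main fit, 172 without WT 3, 145 with limma-voom and 695 without both libraries numbered 1. Tpm3 missed the threshold with limma-voom and when any of WT 2, WT 3, WT 4, A17/+ 3 or A17/+ 4 was left out, and without WT 1 the list had 2 members lower.

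Actin turnover and capping genes recycle monomers and close filament ends. Of 25 listed genes 15 were tested, 3 rose and 0 fell by edgeR (0 also by DESeq2 and limma-voom, 1 at an unadjusted p under 0.05), with a median of 0.37, where 6.34% of all genes were higher. Gsn, the filament-severing gelsolin, rose from 424 ± 60.8 to 752 ± 206 CPM (log2 fold change 0.82, SE 0.20; edgeR adjusted p = 0.0167). Tmsb4x, the monomer-binding thymosin beta-4, had 1.28 (SE 0.34; edgeR adjusted p = 0.0250), and Cfl1, the severing protein cofilin, had 1.10 (SE 0.33; edgeR adjusted p = 0.0465). The values of each of these 3 genes overlapped between the genotypes. Their count was 2 with DESeq2, 0 with limma-voom and 0 when any of WT 2, WT 3, WT 4 or A17/+ 4 was left out. It was 1 without A17/+ 2, 1 without A17/+ 3 and 6 without A17/+ 1. Among all genes, 586 were higher without A17/+ 1 and 145 with limma-voom, against 321 in the main fit.

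Nucleation genes, which start new filaments, had 0 of 15 tested members past the threshold by edgeR, DESeq2 or limma-voom, with 3 higher and 3 lower at an unadjusted edgeR p under 0.05 and a median of −0.01. Arpc2, a subunit of the Arp2/3 complex, had 0.84 (SE 0.27; edgeR adjusted p = 0.0623), and Arpc5l, another subunit, 1.32 (SE 0.46; adjusted p = 0.0742). Without WT 1 this list had 3 members higher and 2 lower, without A17/+ 1 it had 1 higher, and without A17/+ 2 it had 1 lower. Crosslinking and adhesion genes, which tie cytoplasmic filaments together and to the membrane, had 0 of 18 past the threshold by edgeR, DESeq2 or limma-voom, with 0 higher and 4 lower at an unadjusted edgeR p under 0.05 and a median of −0.21. Among all 5066 genes tested, 1273 had an unadjusted edgeR p under 0.05 in either direction, so nothing is read from these unadjusted counts. Myh9, nonmuscle myosin, had −0.49 (SE 0.19; edgeR adjusted p = 0.120). Without WT 1 the list had 5 members lower, and without A17/+ 1 or A17/+ 2 it had 1. The counts over all genes moved in the same runs, from 321 higher and 132 lower to 507 and 383 without WT 1. These counts were 586 and 185 without A17/+ 1, and 309 and 226 without A17/+ 2.

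Newly made actin is folded by the chaperonin CCT with the help of prefoldin. Of 17 genes of folding and maturation 12 were tested, 2 rose and 0 fell by edgeR (0 also by DESeq2 and limma-voom, 1 at an unadjusted p under 0.05), with a median of 0.51, where 6.34% of all genes were higher. The count rests on only 2 of 12 members, and nothing is read from it. Cct8, a CCT subunit, rose from 16.1 ± 4.84 to 60.6 ± 24.3 CPM (log2 fold change 1.90, SE 0.42; edgeR adjusted p = 0.00944). Cct5, another subunit, rose from 52.6 ± 1.76 to 96.7 ± 14.6 CPM (log2 fold change 0.87, SE 0.23; edgeR adjusted p = 0.0240). The count was 1 by DESeq2 and by limma-voom, 1 without any of WT 2, WT 3, WT 4, A17/+ 2 or A17/+ 3, and 0 without A17/+ 4.

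Of 8 tested regulators of actin genes, 1 rose and 0 fell by edgeR (0 also by DESeq2, by limma-voom and at an unadjusted p under 0.05), with a median of 0.23. The background is 6.34% of all genes, and a count of 1 among 8 members is no result about the regulators. Mef2c, a muscle transcription factor, rose from 396 ± 53.2 to 584 ± 86.5 CPM (log2 fold change 0.56, SE 0.16; edgeR adjusted p = 0.0416). The call was lost with DESeq2 and limma-voom, and without any of WT 2, WT 3, WT 4, A17/+ 1, A17/+ 3 or A17/+ 4. Srf, serum response factor, was below the filter, at 3.27 ± 2.48 CPM in WT against 7.51 ± 2.61 CPM in A17/+ (SD, n = 4), and was chosen after its value was seen. Of 15 listed genes of developing or regenerating muscle, a setting in which Actc1 is known to be made, 13 were in the table and 6 were tested. Of these 6, 0 were past the threshold by edgeR, DESeq2 or limma-voom. At an unadjusted edgeR p under 0.05, 2 were higher and 1 lower, and the median was 0.39. Myh3, Myog, Myod1, Myf5 and Mymk had 0 to 4 UMIs in each library and were not tested, so the count does not cover them. Xirp1, a protein of actin-based junctions, had 1.17 (SE 0.37; edgeR adjusted p = 0.0532) and Csrp3, muscle LIM protein, 0.63 (SE 0.22; adjusted p = 0.0821), and the list had 1 member higher without WT 1 or without A17/+ 1, and 1 lower without WT 1. The sum of the list was 347 to 550 CPM in WT and 384 to 603 CPM in A17/+. As background for the unadjusted counts, 1273 of all 5066 genes tested had an unadjusted edgeR p under 0.05.

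**Figure D4:**
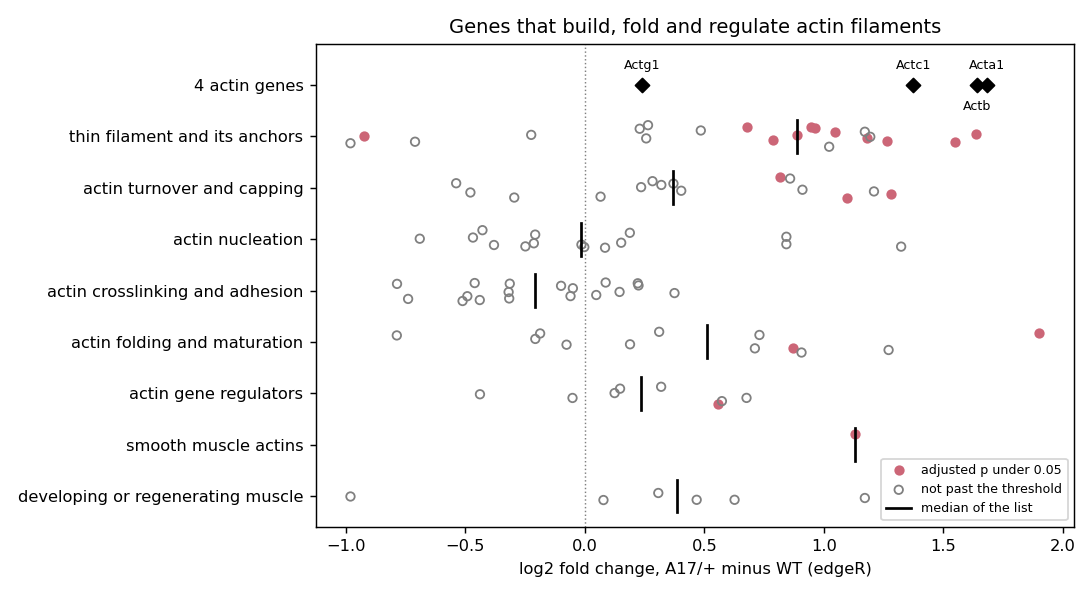
Log2 fold change, A17/+ minus WT by edgeR, of the 4 actin genes (diamonds) and of the tested genes of each actin-related list, 1 point per gene on a linear axis. Filled points are past an adjusted p of 0.05, open points are not, and black bars are list medians, 0.89 for the thin filament list, −0.01 for nucleation and −0.21 for crosslinking and adhesion.

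Genes whose profile over the 8 libraries lay nearest to that of each actin were found among 1475 genes with a mean of at least 100 CPM, by the root mean square difference of mean-centred log2 CPM. Nearest to Acta1 was mt-Nd1, a complex I subunit encoded by mitochondrial DNA, at 0.08, followed by Ldb3, a Z-disc protein, at 0.12. After them came Ldha, a lactate dehydrogenase chain, at 0.17, the ubiquitin gene Ubb at 0.19 and the myosin light chain Myl1 at 0.22. Actb lay at 0.30 from Acta1, Actc1 at 0.52 and Actg1 at 0.80. Among the 5 genes nearest to Actb were Cryab, a small heat shock protein, at 0.16, Ldha at 0.19, the phosphatase Ptp4a3 at 0.19 and Ubb at 0.20. Ldha and Ubb thus stood on the lists of both Acta1 and Actb. The profiles were centred over both genotypes, so nearness largely follows the difference between genotypes on which the actins were chosen. The 5 genes nearest to Acta1 had log2 fold changes of 1.55 to 1.76. Nearness is therefore a description and no sign of shared regulation.

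Actc1 had no profile as near. It held only 7 to 71 UMIs per library, and the part of counting error in its distances was not tested. The ribosomal protein gene Rps26 lay at 0.28, Sdhb, a complex II subunit, at 0.29, Cyc1, cytochrome c1, at 0.35, and the ribosomal protein genes Rpl13 and Rpl32 at 0.36 and 0.38. Nearest to Actg1 were Acadl, an enzyme of fatty acid oxidation, at 0.10, the proteasome-associated Ecpas at 0.10, Wdr1, a cofactor of cofilin in filament disassembly, at 0.11, Psme4, a proteasome activator, at 0.11, and the insulin receptor Insr at 0.13. Actg1 held only 8 to 27 UMIs per library, and the part of counting error in its distances was likewise not tested. Its smaller distances are therefore no surer than those of Actc1.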

How the data were processed

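RNA of 8 tongue libraries was measured by mcSCRB-seq. Per the submitters' processing notes, cutadapt 2.10, STAR 2.7.5a, UMI-tools 1.1.1, HTSeq and build mm10 were used. Settings, strand and annotation release are not given in the sources used here. The authors deposited whole-number counts per Ensembl gene, and log2 values for 10709 genes per library, used here in alternatives only. GENCODE M21 gave a symbol to 19677 of 19857 genes. The annotation's representative transcript gave lengths.

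The counts were filtered with filterByExpr (minimum count 10, minimum total 15), scaled by TMM and compared by genotype in edgeR 4.0.16 (R 4.3.3) with glmQLFit, robust setting, and glmQLFTest. Benjamini-Hochberg adjustment ran over 5066 genes, with a threshold of 0.05. CPM used TMM-scaled library sizes whose geometric mean equals that of the library totals. DESeq2 1.42.0 and limma 3.58.1 served as alternatives. The fit was also tested on simulated data. The libraries come from separate mice according to the labels, and no batch is labelled.

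Members and lists were chosen with earlier results of these data known. Genes named were the 4 actins, per list the 5 members of smallest p that passed the threshold (up to 2 as values where none passed), markers, and the 5 nearest profiles. Nearness used log2(CPM + 1). Genes without a row in the table used here were not analysed here. A gene that the rule names in the crosslinking list and one among the profiles nearest to Actb are not reported here.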

Additional observations from a re-analysis of the deposited data

Results flagged for a closer look

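Of 64 groups of 4 libraries that were examined for a library lying far from the other 3, 5 stood out, where chance alone would give about 1 in 20. None was an actin level, share or ratio. The summed salivary gland genes reached 1883 CPM in WT 1, against at most 9.29 CPM in the other WT libraries. The developing or regenerating muscle list reached 550 CPM in WT 4, with the other WT libraries at 347 to 353 CPM, and the red blood cell markers 29.6 CPM in WT 2. Within A17/+, the actin nucleation list was lowest in A17/+ 1, at 1843 CPM against 2165 to 2208 CPM, and the crosslinking and adhesion list was highest in A17/+ 2, at 5920 CPM.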

How the results depend on the processing

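The log2 fold changes of the 4 actins kept their sign and moved by less than 1 SD of the libraries in every alternative run. Leaving out 1 library gave 1.46 to 1.83 for Acta1, 1.16 to 1.65 for Actc1, 1.35 to 1.83 for Actb and 0.11 to 0.35 for Actg1. Other settings gave 1.30 to 1.94, 1.00 to 2.02, 1.42 to 1.98 and 0.08 to 0.30. The log2 ratio difference of striated to cytoplasmic actin, 0.23, ran from 0.11 to 0.37 without 1 library and from 0.08 to 0.26 otherwise. Of 5066 genes 453 changed, 321 higher and 132 lower. Without 1 library these were 210 to 890, 172 to 586 and 38 to 383. They were 228, 145 and 83 with limma-voom, 853, 615 and 238 with no filter, 797, 538 and 259 with limma-trend on the deposited log2 values, and 1025, 695 and 330 without both libraries numbered 1. With library totals only, 289 were lower and 279 higher, and with the length trend removed 178 and 271. The cause of these shifts was not tested. With the replicate number as a block Acta1 had 1.62, Actc1 1.23, Actb 1.52, Actg1 0.24, and 410 genes changed. Same-numbered libraries did not deviate together (Pearson r over genes −0.15 to 0.08), so the numbers were not used as pairs. With the length trend removed Mylpf reversed to −0.23 and Csrp3 to −0.055. Of 27 genes named from lists and past the threshold, leaving out WT 3 lost 12, WT 2 lost 11, WT 4 lost 10 and A17/+ 4 lost 11 of 26, and limma-voom lost 10. Actg1 was below the filter in thinned counts. At 7 to 36 UMIs per WT library, Actc1 and Actg1 carry a large counting error.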
